A study of Mus with 9 samples.

Results

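The genes described here sense microbial and damage signals and carry them to inflammatory cell death: the Toll-like receptors (TLRs) with their adaptors and kinases, the NOD-like receptors (NLRs) with Aim2 and Pycard, the caspases and the gasdermins. They were chosen by gene symbol in the raw count table, with earlier results of these data known. The symbols were Tlr or Casp followed by a digit, Nlrp, Nlrc, Nlrx, Gsdm, Naip followed by a digit, Irak1 to Irak4, and Pycard, Aim2, Myd88, Ticam1, Ticam2, Nod1 and Nod2. That rule found 79 of 55421 genes. It also caught 4 genes whose symbols mark them as pseudogenes, and Naip3, which RefSeq types as a pseudogene. Another 2 genes, Casp8ap2 and Irak1bp1, share only a name with these families.

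RNA was sequenced from mouse tissue that the labels call atria and the design text calls left atrium, in 3 groups of 3 libraries from male wild-type C57BL/6J mice aged 8 to 10 weeks and weighing 20 to 23 g. Sham mice had the operation without the ligation and received vehicle (titled 1 to 3). MI mice had the left anterior descending coronary artery tied for good, which infarcts the ventricle, and received vehicle (titled 2 to 4). MI_ART mice had the same ligation and received artesunate, an antimalarial drug derived from artemisinin (titled 1 to 3). The sources conflict on its dose: the treatment protocol gives 25 mg/kg into the peritoneum each day for 7 days from surgery, and the design text gives 10 mg/kg on alternate days, from 2 days ahead of surgery to day 7. A label also calls the animals rats, and the harvest day is not given. The sample names alone set the libraries apart as samples, with no word on separate animals, so a p-value here reflects library-to-library spread, which may be technical.

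Toll-like receptors bind conserved microbial molecules, and also molecules released from injured tissue, at the cell surface or inside endosomes. Most pass the signal through MyD88 and the IRAK kinases to NF-kB, which switches on inflammatory genes. Inflammasomes form when a cytosolic sensor such as NLRP3, a NAIP with NLRC4, NLRP1 or AIM2 assembles with the adaptor ASC, encoded by Pycard, and activates caspase-1. Caspase-1 matures interleukin-1 beta and cleaves gasdermin D, whose fragment forms pores in the membrane, a lytic death called pyroptosis. In the infarcted heart these genes are known chiefly from infiltrating macrophages and neutrophils, with some in fibroblasts, endothelium and muscle cells.

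Total counts ranged from 68046341 to 83685313 per library. Levels are given as CPM, the usual read count unit, over the library size after TMM scaling (trimmed mean of M values, edgeR's correction for composition). MI 4 stood apart: per gene, its counts gave a chi-square of 538 against MI 2 and 432 against MI 3, while the remaining pairs inside a group gave 63.6 to 122. MI_ART 3 had Myl7 (the atrial myosin light chain) at 1.96 CPM against 167 to 989 CPM elsewhere. A list of 9 atrial muscle markers summed to 1864 to 7534 CPM in Sham, 13537 to 25245 CPM in MI and 1350 to 12593 CPM in MI_ART. MI_ART 3 had the lowest sum, and in MI against Sham 1 of the listed genes fell and none rose. Sham 1 held transcripts that the other libraries nearly lacked, with the airway secretory gene Scgb1a1 at 123 CPM and Ltf (lactotransferrin) at 44.9 CPM. A macrophage and monocyte marker list of 15 genes summed to 403 to 602 CPM in Sham, 3245 to 3980 CPM in MI and 2191 to 4127 CPM in MI_ART, and 14 of its genes rose in MI. Of 13 neutrophil markers 8 were tested and 7 rose, although Ly6g, Ngp, Camp and Elane were at or near 0 in every library. In the test given below, 18.8% of all tested genes were called higher in MI and 14.3% lower.

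Counts were tested with edgeR's quasi-likelihood F test over 19326 genes, and a call means an adjusted p (Benjamini-Hochberg) below 0.05. Where no other tool is named, the adjusted p is edgeR's. Of the 79 genes 52 had enough counts to be tested, and the other 27 did not. No counts in any library were found for 17 of those 27, and the most abundant of the rest were Tlr12 with 64, Gsdmcl2 with 28, Nlrp4f with 21, Gsdmc4 with 20, and Naip3 and Nlrp6 with 11 counts each over the 9 libraries. The untested set held all 13 NLRP genes known from germ cells and embryos. It also held all 9 gasdermin C, C-like, A2 and A3 genes, among them the pseudogene Gsdmcl-ps. The filter keeps a gene that is expressed in any 1 group, so Naip1, Nlrp1a, Gsdma and the pseudogene Naip3-ps1, with no counts in Sham, were tested through their counts after infarction.

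After infarction these genes were mostly higher. Of the 52 tested, 30 rose in MI (57.7%) and Nlrp10 alone fell, where 18.8% of all tested genes were called higher and 14.3% lower. The 30 included Naip1, Nlrp1a and Gsdma, which had no counts in Sham and so could only come out higher. The median log2 fold change was 1.32, against 0.04 over all tested genes, and 36 had an unadjusted p under 0.05, where 43.9% of all genes did. The libraries of MI and Sham did not overlap for 34 genes that were higher and 1 that was lower, against 25.7% and 23.2% of all genes. The 34 included Naip1, Nlrp1a, Gsdma and Naip3-ps1, all without counts in Sham. The TMM factor was 0.62 to 0.74 in the Sham libraries and 1.14 to 1.28 in the infarcted ones. Scaling by total counts alone moved the median of all genes to 0.88, and then 42 of the 52 were higher and none lower, where 49.3% of all genes were called higher and 3.33% lower. The members' median stood 1.28 above that of all genes under TMM and 1.29 above it under total counts. In bulk tissue, more cells of a type and more RNA per cell cannot be told apart, and the macrophage and monocyte markers moved with these counts. So did a list of 8 fibroblast markers, of which 6 were called higher and 1 lower in MI (median log2 2.38), with summed CPM of 1644 to 1842 in Sham, 7750 to 9150 in MI and 6847 to 8095 in MI_ART. Of 8 tested neutrophil markers 7 were called higher in MI, and of 7 ventricular muscle markers 4 were called lower and 1 higher. The part of any of these lists in the result was not tested.

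**Figure D1:**
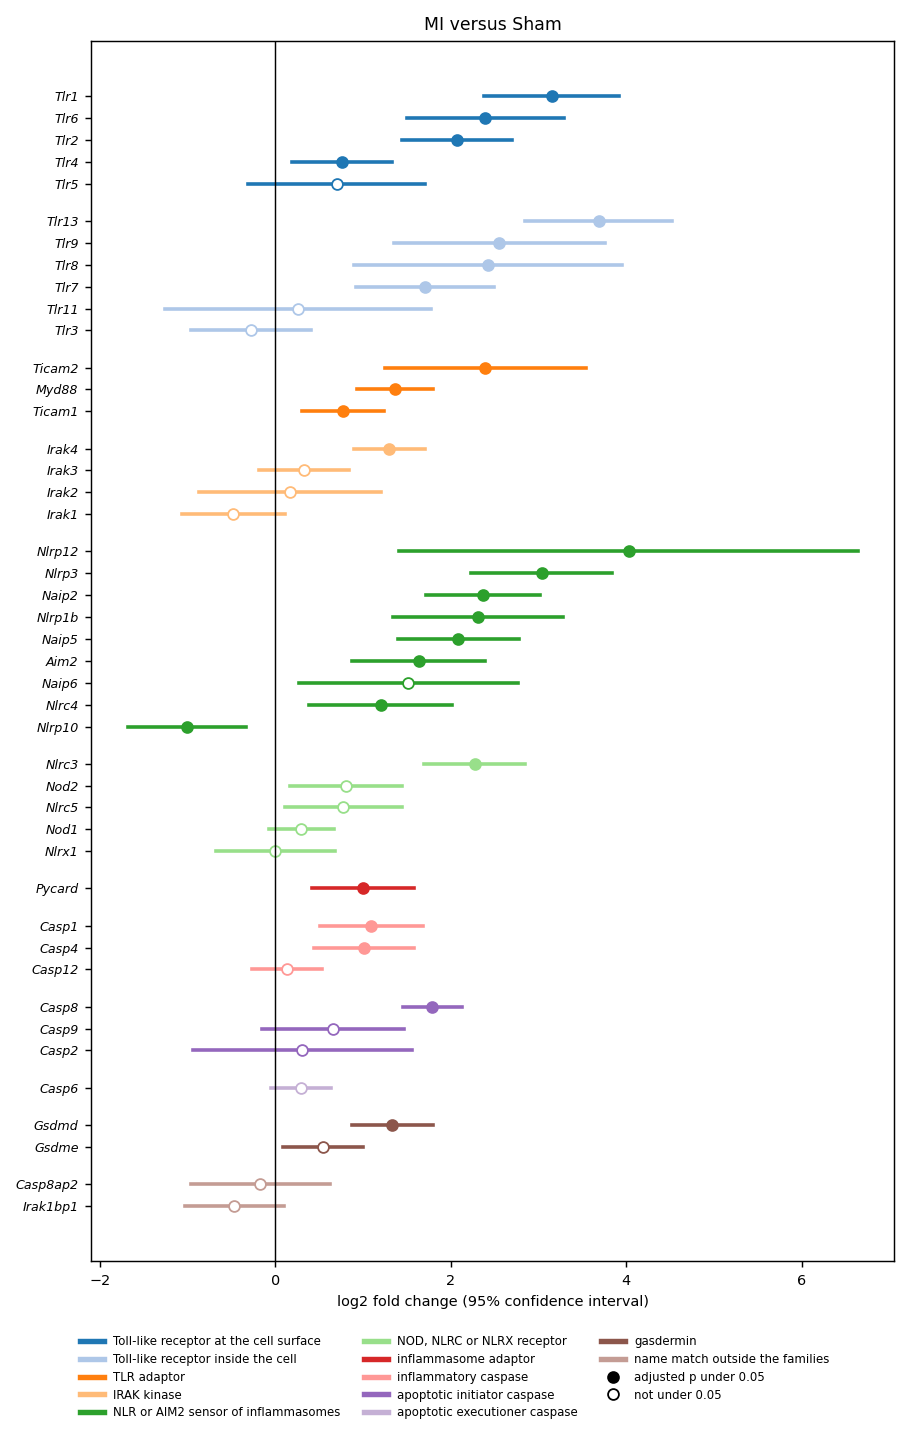
Log2 fold change of each tested gene in MI against Sham with its 95% confidence interval, grouped by role, where filled points have an adjusted p under 0.05 (edgeR). Pseudogenes, the 3 genes with no counts in Sham and members not reported are not drawn; the receptors, adaptors and sensors lie mostly to the right of 0, while Nlrp10 lies to the left at -1.01.

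At the cell surface, 4 of 5 Toll-like receptors rose. This and the counts by family below are to be set against all tested genes, 18.8% called higher and 14.3% lower in MI. With total counts those shares were 49.3% and 3.33%. Tlr2 (chromosome 3, 83836272 to 83841824, GRCm38), which pairs with Tlr1 or Tlr6 to bind bacterial lipoproteins, was at 6.38, 3.67 and 7.83 CPM in Sham 1 to 3, at 24.6, 26.6 and 23.6 CPM in MI 2 to 4, and at 21.6, 16.0 and 24.7 CPM in MI_ART 1 to 3. Each infarcted library was above each Sham library, and the rise in MI was 4.19-fold (log2 2.07, SE 0.28, adjusted p = 0.000557). Its partner Tlr1 was at 1.68, 1.32 and 2.41 CPM in Sham, 15.4, 19.8 and 12.8 CPM in MI, and 21.0, 10.4 and 19.8 CPM in MI_ART, an 8.87-fold rise in MI (adjusted p = 0.000193). The other partner, Tlr6, rose 5.26-fold (adjusted p = 0.00159), from 0.979 ± 0.384 to 5.15 ± 0.558 CPM (SD, n = 3). Tlr1 and Tlr6 are neighbouring, similar genes on chromosome 5 (64924680 to 64970942), and Tlr6 overlaps the annotated span of Fam114a1, so its count is uncertain.

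Tlr4, the receptor for lipopolysaccharide and for several molecules of damaged matrix, had a smaller fold change. It was at 12.9, 12.5 and 12.0 CPM in Sham, 23.7, 26.6 and 13.2 CPM in MI, and 22.8, 16.1 and 19.3 CPM in MI_ART. MI 4 sat just above Sham, and the other MI libraries were well above it. The 1.69-fold rise (log2 0.76, adjusted p = 0.0447) was lost in 10 of 17 alternative analyses, among them without any single Sham library, MI 2, MI 3, MI_ART 1 or MI_ART 3 (adjusted p up to 0.146). Tlr5, the flagellin receptor, did not pass (log2 0.70, adjusted p = 0.265), though it passed at 1.58 with total counts.

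Inside the cell, 4 of the 6 tested Toll-like receptors rose. The steepest was Tlr13 (chromosome X, 106143275 to 106160493), a mouse receptor for a stretch of bacterial ribosomal RNA. It was at 2.25, 1.66 and 3.04 CPM in Sham, 26.5, 37.9 and 25.1 CPM in MI, and 37.4, 16.8 and 37.5 CPM in MI_ART. Its rise in MI was 12.9-fold (log2 3.69, SE 0.37, adjusted p = 0.000144), and every infarcted library was above the highest Sham library. Tlr7, a receptor for single-stranded RNA, rose 3.26-fold (adjusted p = 0.00483), from 3.61, 3.71 and 6.24 CPM in Sham to 17.0, 17.9 and 9.27 CPM in MI. Tlr9, which binds unmethylated CpG DNA, rose 5.87-fold (adjusted p = 0.00537), from 0.342 ± 0.252 to 2.01 ± 0.402 CPM (SD, n = 3).

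Tlr8, the neighbour of Tlr7 on chromosome X (167241123 to 167330574 for the pair), split the MI group. It was at 1.23, 0.948 and 1.42 CPM in Sham, at 7.80 and 10.4 CPM in MI 2 and MI 3, and at 1.16 CPM in MI 4, inside the Sham range. Its fold change of 5.37 (adjusted p = 0.0216) was lost with limma-voom and without any 1 of the Sham libraries or MI 3 (adjusted p up to 0.183), and was 2.92 on the log2 scale without MI 4 (adjusted p = 0.000916). In MI_ART it was at 9.40, 4.10 and 11.1 CPM, all above Sham. Over the 6 intracellular receptors the median log2 difference from the Sham mean was 2.28 in MI 2 and 2.18 in MI 3 but 0.84 in MI 4, while the macrophage markers stood at 2.96, 2.85 and 3.45 in the same libraries. Among the MI libraries, MI 4 thus had the lowest median for these receptors and the highest for those markers. Single receptors differed in this: MI 4 was the highest MI library for Tlr11, and MI 2 the lowest for Tlr3.

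Tlr3, the receptor for double-stranded RNA, and Tlr11 did not pass. Tlr3 was at 13.9, 10.7 and 16.5 CPM in Sham, 8.16, 17.0 and 8.77 CPM in MI, and 6.55, 9.08 and 8.84 CPM in MI_ART. Its log2 fold change in MI was -0.27 (adjusted p = 0.533) and turned to 0.60 with total counts. The MI_ART libraries all lay below Sham, at a log2 fold change of -0.75 that did not pass (adjusted p = 0.120).

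**Figure D2:**
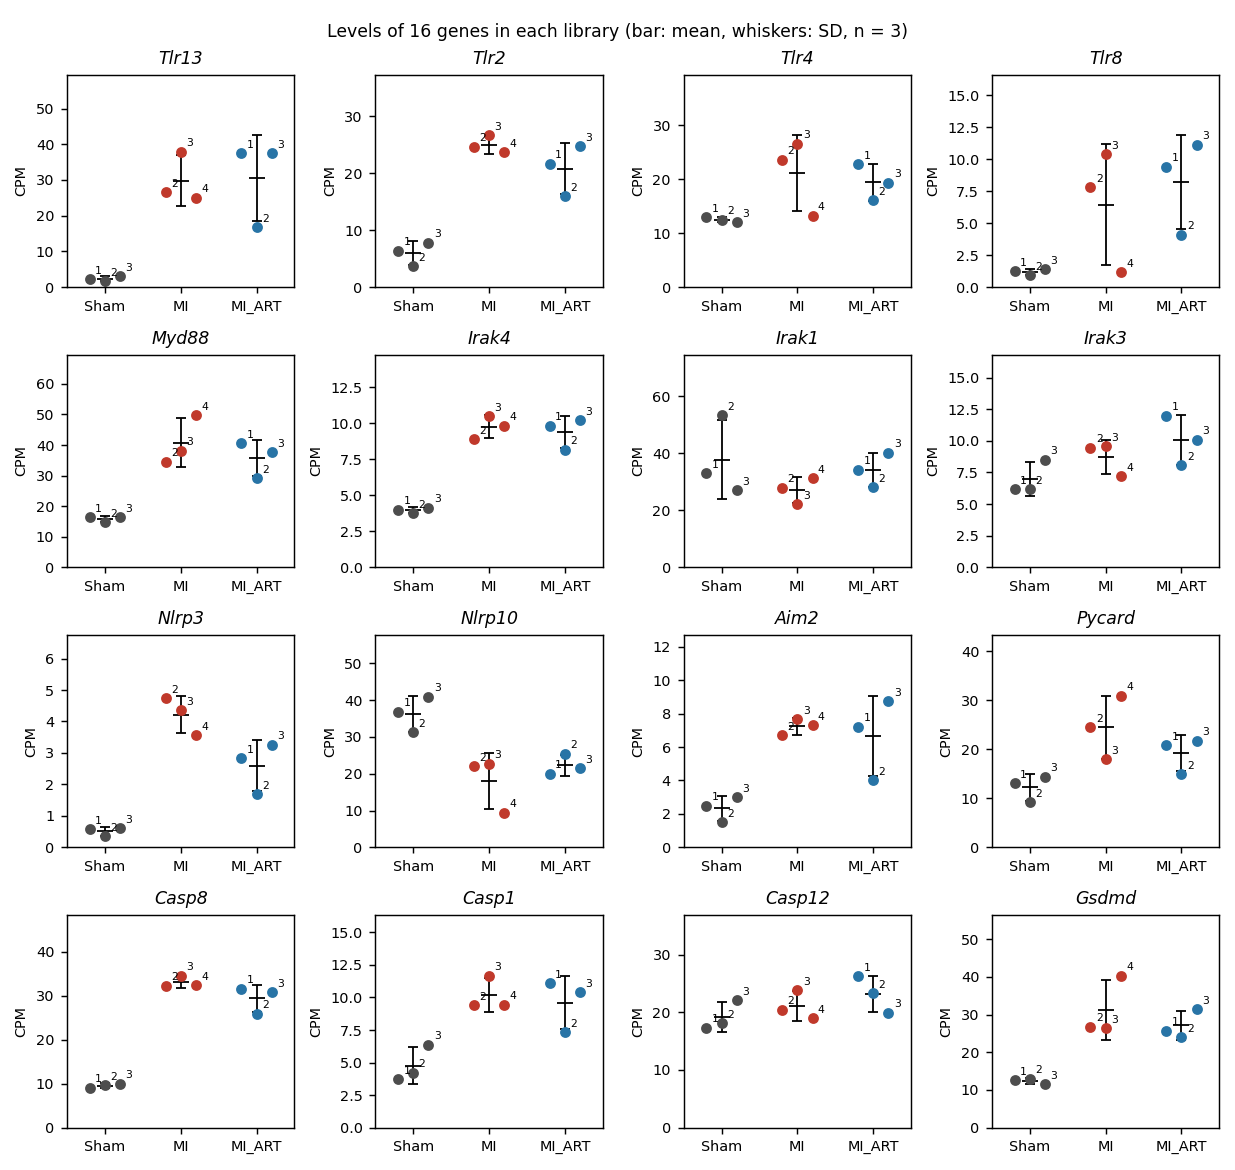
CPM of 16 genes in each library (points, numbered by library), with the mean (bar) and SD (whiskers) of 3 libraries, each panel on its own linear axis from 0. Tlr8 in MI 4 lies at 1.16 CPM among the Sham points while Casp8 lies between 32.2 and 34.5 CPM in MI and below 10 CPM in Sham.

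The adaptors that the receptors recruit were higher in MI, 3 of 3. Myd88 (chromosome 9, 119335934 to 119340018), used by nearly all the receptors, was at 16.3, 14.7 and 16.4 CPM in Sham, 34.6, 38.1 and 49.7 CPM in MI, and 40.6, 29.2 and 37.7 CPM in MI_ART. The 2 infarcted groups overlapped each other and neither overlapped Sham, with a 2.58-fold rise in MI (log2 1.37, SE 0.19, adjusted p = 0.000672). Ticam2, the bridging adaptor that brings TLR4 to the interferon branch, rose 5.26-fold (adjusted p = 0.00586), from 1.15 ± 0.548 to 6.05 ± 2.66 CPM (SD, n = 3). Ticam1, the TRIF adaptor of that branch, rose 1.71-fold (adjusted p = 0.0184), from 13.0, 9.71 and 11.2 CPM in Sham to 17.8, 15.3 and 24.9 CPM in MI, and the call was lost without Sham 2 or Sham 3 (adjusted p up to 0.0711).

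Of the 4 IRAK kinases, Irak4 passed. Irak4, the first kinase that MyD88 engages, was at 4.00, 3.75 and 4.13 CPM in Sham, 8.91, 10.5 and 9.85 CPM in MI, and 9.83, 8.16 and 10.2 CPM in MI_ART. Its libraries were tightly grouped, and the rise in MI was 2.46-fold (log2 1.30, SE 0.18, adjusted p = 0.000646). Irak1, the kinase that it phosphorylates, was at 33.1, 53.3 and 27.1 CPM in Sham and 27.9, 22.2 and 31.3 CPM in MI. These ranges overlapped, and the log2 fold change of -0.48 (adjusted p = 0.189) turned to 0.34 with total counts. Irak2 (log2 0.17, adjusted p = 0.811) and Irak3, the inhibitory family member also called IRAK-M (log2 0.33, adjusted p = 0.304), did not pass, but Irak3 passed at 1.19 with total counts.

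The sensors that nucleate inflammasomes formed the group with the most calls, 9 higher and 1 lower of 11 tested, and their median log2 value was 2.31. Among those 9, Naip1 and Nlrp1a lacked any counts in Sham, so a fall was not possible for them. Nlrp3 (chromosome 11, 59541569 to 59566955), which responds to ion fluxes and membrane damage, was at 0.571, 0.355 and 0.613 CPM in Sham, 4.75, 4.35 and 3.57 CPM in MI, and 2.84, 1.69 and 3.27 CPM in MI_ART. The 3 groups did not overlap one another, and its log2 fold change was 3.04 in MI (SE 0.36, adjusted p = 0.00029) and 2.33 in MI_ART against Sham (5.04-fold, adjusted p = 0.00167). Aim2, a sensor of DNA in the cytosol, was at 2.33 ± 0.765 CPM in Sham (SD, n = 3), 6.71, 7.67 and 7.31 CPM in MI, and 7.22, 4.02 and 8.75 CPM in MI_ART. It rose 3.10-fold in MI (adjusted p = 0.00494), but its annotated span overlaps Cadm3.

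The NAIP proteins bind bacterial flagellin and secretion needles and hand them to Nlrc4. Naip2 was at 1.47, 1.44 and 1.90 CPM in Sham, 7.44, 9.21 and 8.22 CPM in MI, and 8.98, 5.30 and 10.9 CPM in MI_ART, a 5.17-fold rise in MI (adjusted p = 0.000337). Naip5 rose 4.25-fold (adjusted p = 0.00081). Naip1 had no counts in Sham and 273, 106 and 20 counts in MI 2 to 4. Its mean in MI was at least 25.9-fold above the floor of 3 counts per library (adjusted p = 0.00578), a call lost with limma-voom (adjusted p = 0.0978). Naip6 did not pass (log2 1.52, adjusted p = 0.0627), although it did in 6 of 17 alternatives. These genes are near-identical copies within chromosome 13, 100144063 to 100452864, so reads can be split among them and single members are uncertain. Nlrc4 itself had 0.682, 0.790 and 0.689 CPM in Sham and 2.12, 1.85 and 1.00 CPM in MI, and its 2.30-fold rise (adjusted p = 0.0298) was lost in 7 of 17 alternatives, among them without any single Sham library, MI 2 or MI 3 (adjusted p up to 0.0910).

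The Nlrp1 genes, sensors that are cut by microbial proteases, lie side by side on chromosome 11 (71091197 to 71285232). Nlrp1b was at 0.369, 0.691 and 1.01 CPM in Sham, 3.80, 4.33 and 2.18 CPM in MI, and 6.71, 3.77 and 6.49 CPM in MI_ART. It rose 4.96-fold in MI (adjusted p = 0.00298) and 8.18-fold in MI_ART (adjusted p = 0.00142) against Sham, and its span overlaps the pseudogene Nlrp1c-ps. Nlrp1a had no counts in Sham and 79, 138 and 61 counts in MI 2 to 4, at least 17.7-fold above the floor (adjusted p = 0.00152). Nlrp12, which restrains NF-kB signals in myeloid cells, had 5 counts in Sham 1, none in Sham 2 and Sham 3, and 43, 47 and 57 counts in MI 2 to 4. Its log2 fold change of 4.03 (adjusted p = 0.0247) was lost without Sham 2, Sham 3 or MI 3, and without MI 4 together with MI_ART 3 (adjusted p up to 0.0734).

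Nlrp10, an NLR without the ligand-binding repeats of its relatives, went the other way. It was at 36.8, 31.2 and 41.0 CPM in Sham, 22.0, 22.7 and 9.41 CPM in MI, and 20.0, 25.4 and 21.6 CPM in MI_ART, with every infarcted library below every Sham library. It fell 2.01-fold in MI (log2 -1.01, SE 0.30, adjusted p = 0.0280). The call was lost without Sham 1 or Sham 3, with 2 groups fitted alone, with no filter, and with total counts, where the log2 fold change was -0.16 (adjusted p = 0.664). A ventricular muscle marker list of 7 genes was lower in the same libraries, with 4 called lower and 1 higher, and summed CPM of 10551 to 11934 in Sham, 3511 to 6342 in MI and 5711 to 6741 in MI_ART. Its part in the Nlrp10 result was not tested.

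Among the 5 receptors of the NOD, NLRC and NLRX type, Nlrc3 rose. Nlrc3 (chromosome 16, 3943807 to 3979017), which dampens innate and T cell signalling, was at 1.11, 1.70 and 1.76 CPM in Sham, 6.44, 9.19 and 6.42 CPM in MI, and 6.98, 7.06 and 7.38 CPM in MI_ART. Both infarcted groups lay wholly above Sham, with a 4.83-fold rise in MI (log2 2.27, SE 0.26, adjusted p = 0.000227). Nod1 and Nod2, which sense fragments of bacterial cell wall, had log2 fold changes of 0.30 (adjusted p = 0.192) and 0.81 (adjusted p = 0.0532). Nod2 was higher in each MI library (2.55, 3.40 and 2.47 CPM) than in each Sham library (1.36, 1.58 and 1.86 CPM), and passed in 3 of 17 alternatives. The mitochondrial regulator Nlrx1 was at 11.9 ± 3.44 CPM in Sham and 11.9 ± 4.67 CPM in MI (SD, n = 3), a log2 fold change of 0.00 with a 95% interval of -0.68 to 0.68. With total counts, 4 of these 5 genes passed, Nlrx1 being the exception.

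Pycard (chromosome 7, 127991373 to 127993867), which encodes the adaptor ASC, was at 13.1, 9.22 and 14.5 CPM in Sham and 24.5, 18.0 and 31.0 CPM in MI, and averaged 19.2 ± 3.71 CPM in MI_ART (SD, n = 3). Its MI libraries lay above those of Sham. It rose 2.00-fold in MI (log2 1.00, adjusted p = 0.0147), a call lost without Sham 2 (adjusted p = 0.0567). Against Sham it did not pass in MI_ART (log2 0.65, adjusted p = 0.106).

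Of the 3 inflammatory caspases, which lie together on chromosome 9 (5298517 to 5373034), Casp1 and Casp4 rose and Casp12 did not pass. Casp1, which matures interleukin-1 beta, was at 3.70, 4.21 and 6.37 CPM in Sham, 9.39, 11.7 and 9.45 CPM in MI, and 11.1, 7.31 and 10.4 CPM in MI_ART. Neither infarcted group overlapped Sham (adjusted p = 0.010 in MI and 0.0223 in MI_ART). Casp4, the mouse gene for caspase-11, which senses lipopolysaccharide in the cytosol, rose 2.02-fold (adjusted p = 0.0134), from 6.41, 4.07 and 4.40 CPM to 7.58, 9.90 and 12.5 CPM, and the call was lost without Sham 2 or Sham 3 (adjusted p up to 0.0547). Casp12 was at 17.4, 18.1 and 22.1 CPM in Sham and 20.4, 23.9 and 18.9 CPM in MI, a log2 fold change of 0.13 with a 95% interval of -0.26 to 0.53, and it passed at 0.99 with total counts.

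Of the apoptotic initiators, Casp8 passed and Casp9 and Casp2 did not. Casp8 (chromosome 1, 58795233 to 58847503), which acts below death receptors and holds back necroptosis, had the smallest p of the 52 genes. It was at 9.05, 9.63 and 9.99 CPM in Sham, 32.2, 34.5 and 32.4 CPM in MI, and 31.6, 25.8 and 30.8 CPM in MI_ART, and its log2 fold change of 1.79 had an SE of 0.15 (adjusted p = 8.67e-05). Casp9, the initiator of the mitochondrial pathway, was at 9.88, 13.9 and 4.06 CPM in Sham and 13.5, 14.8 and 15.7 CPM in MI (log2 0.66, adjusted p = 0.190). It passed with total counts (adjusted p = 0.0131). Casp2 ranged from 3.71 to 21.0 CPM within Sham alone, and its log2 fold change of 0.31 (adjusted p = 0.708) changed sign when Sham 2 or MI 3 was left out.

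Casp6, which cleaves nuclear lamins in the dying cell, was higher in each MI library (17.1, 16.6 and 18.8 CPM) than in each Sham library (13.4, 14.0 and 15.5 CPM), but by 0.29 on the log2 scale (adjusted p = 0.171). It passed with total counts (adjusted p = 0.000302).

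Of 11 gasdermin genes, the pseudogene Gsdmcl-ps left aside, 3 were tested, and 2 of these, Gsdmd and Gsdma, rose. Gsdmd (chromosome 15, 75862144 to 75867408), the pore former cut by caspase-1 and caspase-11, was at 12.5, 13.0 and 11.5 CPM in Sham, 26.8, 26.3 and 40.3 CPM in MI, and 25.8, 24.1 and 31.5 CPM in MI_ART. Every infarcted library lay above Sham, and the rise in MI was 2.52-fold (log2 1.33, SE 0.21, adjusted p = 0.00111). Gsdme, a gasdermin that can turn apoptosis into a lytic death, was at 7.59, 5.98 and 5.15 CPM in Sham and 8.33, 9.04 and 9.95 CPM in MI, a log2 fold change of 0.54 that did not pass (adjusted p = 0.0640) but did in 3 of 17 alternatives. Gsdma, known from skin, had no counts in Sham and 12, 27 and 20 counts in MI 2 to 4, at least 3.73-fold above the floor. Its adjusted p of 0.0427 was lost in 9 of 17 alternatives, among them without each single Sham or MI library and without MI_ART 1 (adjusted p up to 0.159).

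Under artesunate none of the 52 genes was called against MI, where 0.0103% of all tested genes were called lower and none higher. DESeq2 and limma-voom also called none of the 52. At an unadjusted p under 0.05 there were 2 of 52 (3.85%) with edgeR, 3 with DESeq2 and 4 with limma-voom, and with edgeR 6.96% of all tested genes were below that value. The median log2 fold change of the 52 was -0.12, against -0.00 over all tested genes. The groups did not overlap for Nlrp3, Ticam1, Casp6, Casp8 and the pseudogene Nlrp5-ps, each lower in MI_ART, and for no gene that was higher, against 6.52% of all genes lower and 7.38% higher.

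**Figure D3:**
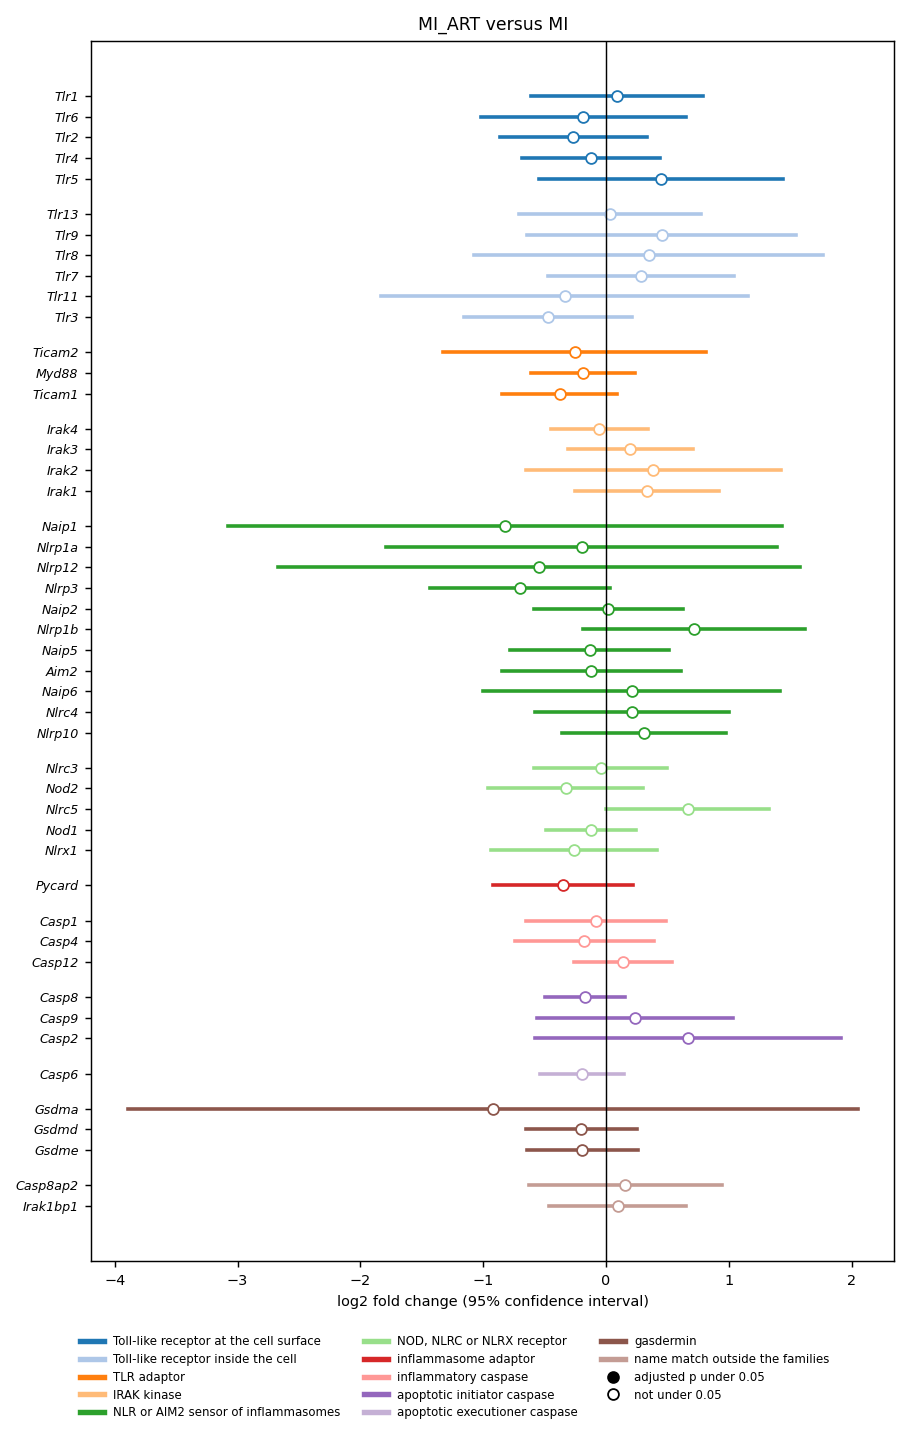
Log2 fold change of each tested gene in MI_ART against MI with its 95% confidence interval, grouped by role (edgeR), pseudogenes and members not reported left out. No point drawn has an adjusted p under 0.05; the interval of Nlrp3 runs from -1.43 to 0.03.

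Among the genes with the smallest unadjusted p in that comparison were Nlrp3 and Nlrp5-ps with lower values, and Nlrc5, Nlrp1b and Irak1 with higher values. Nlrp3 had a log2 fold change of -0.70 with a 95% interval of -1.43 to 0.03 (adjusted p = 0.724). Leaving out single libraries gave -0.90 to -0.46. The -0.46 came without MI_ART 2, the MI_ART library with the lowest sum of macrophage markers, whose part was not tested. Nlrc5, the activator of MHC class I genes, was at 8.33, 9.78 and 6.17 CPM in MI and 14.1, 9.51 and 14.9 CPM in MI_ART, and MI_ART 2 fell inside the MI range (log2 0.67, interval 0.00 to 1.33, adjusted p = 0.716). Nlrp1b had a log2 fold change of 0.72 with an interval of -0.18 to 1.62 (adjusted p = 0.741), and Irak1 one of 0.34 (adjusted p = 0.790). The pseudogene Nlrp5-ps, under 1.1 CPM in every library, had -1.14 (adjusted p = 0.733).

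For other members the intervals give the range of changes compatible with these libraries. They are not adjusted for the number of genes tested, so they are not detection limits of the calls. The 95% interval of the log2 fold change in MI_ART against MI was -0.50 to 0.16 for Casp8, -0.65 to 0.49 for Casp1, -0.65 to 0.25 for Gsdmd, -0.61 to 0.24 for Myd88, -0.92 to 0.22 for Pycard and -0.71 to 0.78 for Tlr13. For Tlr8 it ran from -1.07 to 1.77 and for Naip1 from -3.08 to 1.43. Changes of more than a doubling in either direction lay within the intervals of Tlr8 and Naip1.

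Against Sham, MI_ART had 25 of the 52 genes higher (48.1%) and none lower, where 12.9% of all tested genes were called higher and 7.41% lower. Naip1 and Nlrp1a, with no counts in Sham, were among the 25. DESeq2 and limma-voom also called none of the 52 lower, and at an unadjusted p under 0.05 there were 2 lower with edgeR, DESeq2 and limma-voom each. The median log2 fold change was 1.21, against 0.01 over all genes, and 36 had an unadjusted p under 0.05, against 33.3% of all genes. With total counts 43 were higher and none lower, where 41.6% of all genes were called higher and 0.642% lower. This comparison shares its Sham libraries with that of MI, so each one's values are given side by side and the agreement is not a result. Tlr13 stood at 3.69 in MI and 3.72 in MI_ART, Nlrc3 at 2.27 and 2.23, Irak4 at 1.30 and 1.25, Myd88 at 1.37 and 1.18, Gsdmd at 1.33 and 1.13, and Casp8 at 1.79 and 1.62, all called in both.

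For some genes the call differed between these comparisons, and the direct test of MI_ART against MI passed for none of them. Nlrc5 passed in MI_ART (log2 1.44, adjusted p = 0.00926) and not in MI (0.78, adjusted p = 0.0732). Gsdma (adjusted p = 0.0990), Nlrp12 (3.48, adjusted p = 0.0613), Pycard (0.65), Ticam1 (0.39, adjusted p = 0.224), Tlr4 (0.64, adjusted p = 0.109) and Nlrp10 (-0.70, adjusted p = 0.132) passed in MI and not in MI_ART. Nlrp10 stood at 0.05 in MI_ART with total counts.

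Single libraries followed a pattern across the members. MI_ART 2 was the lowest of its group for 38 of the 52 genes, against 34.8% of all tested genes, and MI 4 the lowest of its group for 29, against 41.5%. The median log2 difference of the 52 from the Sham mean was 1.14, 1.29 and 1.10 in MI 2 to 4 and 1.32, 0.94 and 1.34 in MI_ART 1 to 3. The macrophage and monocyte markers stood at 2.99, 2.23 and 3.19 in MI_ART 1 to 3, with MI_ART 2 again lowest, and their part in the order of the libraries was not tested. Within a group, the highest library was a median of 1.54 to 1.57 times the lowest. Naip1 spread 14.4-fold and Tlr8 8.92-fold in MI, and Casp2 5.65-fold in Sham.

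**Figure D4:**
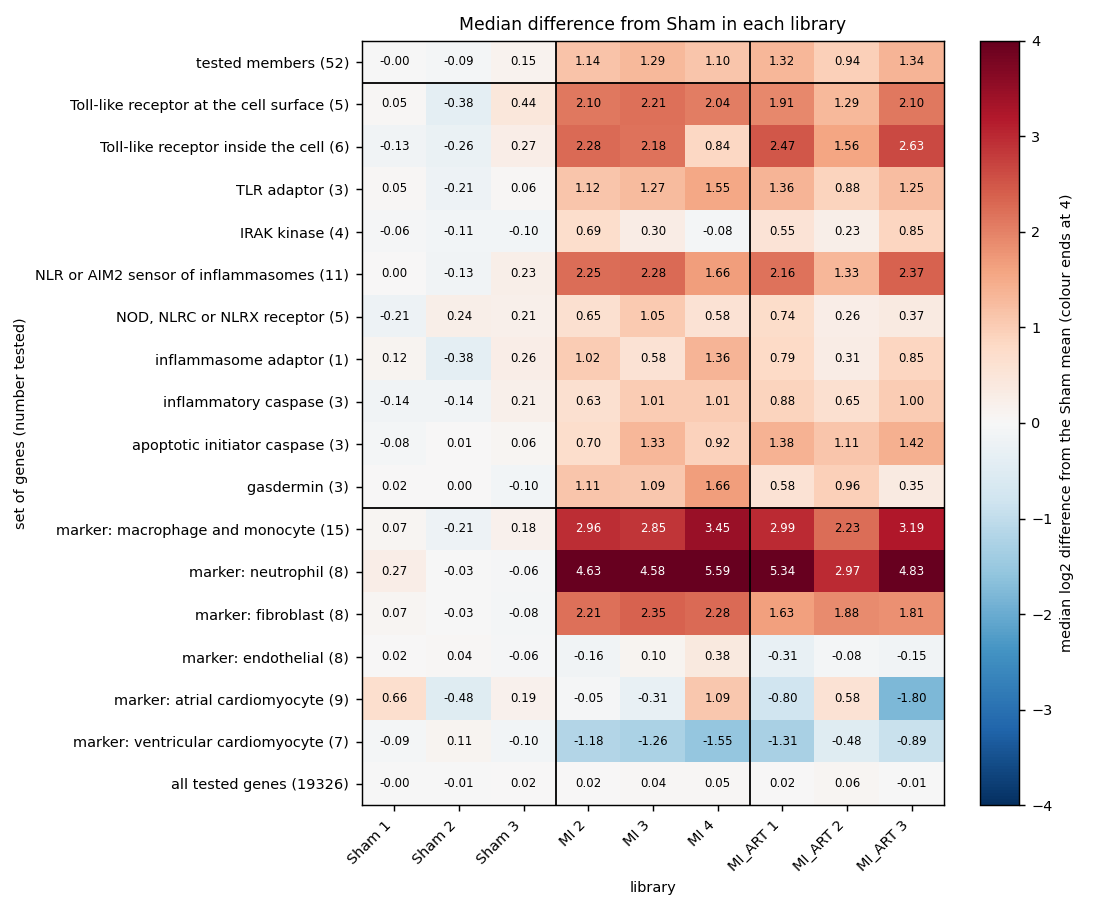
Median log2 difference from the Sham mean in each library (columns) for the tested genes by role (1 caspase role left out) and for 6 marker lists (rows, number of genes in brackets), on log2 of CPM plus 0.1. The intracellular receptors stand at 0.84 in MI 4 against 2.28 and 2.18 in MI 2 and MI 3.

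Genes that work beside these families were read from 8 lists, to be set against the 18.8% of all tested genes called higher and 14.3% lower in MI (49.3% and 3.33% with total counts). Among 10 co-receptors and chaperones of the Toll-like receptors, 6 rose and 1 fell in MI (median log2 1.07), and 9 and 1 with total counts (median 1.93). Cd14, which hands lipopolysaccharide to TLR4, rose 7.57-fold (adjusted p = 0.000106), Ly86 6.47-fold (adjusted p = 0.000133) and Unc93b1, the chaperone that carries the intracellular receptors to endosomes, 5.55-fold (adjusted p = 0.000193), while the scavenger receptor Cd36 fell (log2 -1.76, adjusted p = 0.00272). Of 17 adaptors, ubiquitin ligases and kinases between the receptors and NF-kB, 2 rose and 2 fell, and total counts shifted their median from -0.05 to 0.80, with 11 rising. Ikbke (log2 3.24) and Pik3ap1 (log2 2.87) rose, and Peli3 fell (log2 -1.58, adjusted p = 0.00346) but did not pass with total counts (-0.75, adjusted p = 0.0766). Of 17 NF-kB and IRF genes 9 rose (median 0.79), and 15 with total counts (median 1.64). Among the 9 were Irf5, which TLR signals activate (log2 2.83), Bcl3 (2.54) and Nfkbiz (1.89).

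Downstream, 9 of 12 interleukin-1 family genes rose, with a median of 1.96, and 10 with total counts (median 2.82). Il1b, the cytokine that caspase-1 matures, was at 0.405, 0.118 and 0.479 CPM in Sham, 8.88, 8.89 and 17.0 CPM in MI, and 9.84, 4.70 and 10.8 CPM in MI_ART (log2 5.11 in MI, adjusted p = 0.00019). Its natural antagonist Il1rn, with 14 counts over the 3 Sham libraries, rose by 6.23 on the log2 scale, and the receptor Il1r1 by 1.47. Of 16 inflammasome triggers and regulators 7 rose and 3 fell, where total counts gave 11 and none. Mefv, which encodes the sensor pyrin, had a log2 fold change of 6.97 from 8 counts over the 3 Sham libraries, the channel Panx1 2.59 and the pyrin partner Pstpip1 3.77. Of 18 cell death scaffolds and inhibitors 8 rose and 2 fell, with 13 and none under total counts, and the rises included the necroptosis genes Ripk3 (log2 3.44) and Mlkl (1.81) and the caspase-8 substrate Bid (2.15).

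Other nucleic acid sensors and the molecules that can trigger these receptors were higher too. Of 8 tested cytosolic nucleic acid sensors 6 rose and 1 fell, where total counts gave 7 and none. Among those that rose were the DNA sensor Cgas (log2 2.86), Zbp1 (2.21) and Ifi204 (2.00). Of 10 endogenous danger ligands 7 rose and 1 fell (median 3.27), where total counts gave 8 and none. Tnc, a matrix protein that activates TLR4, had a log2 fold change of 6.94 and Fn1 one of 4.45. The acute phase gene Saa3 stood at 10.21 from 12 counts over the 3 Sham libraries. None of the genes in these 8 lists was called in MI_ART against MI with edgeR.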

How the data were processed

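Each deposited value is a raw read count of an Ensembl gene. The authors used HISAT, featureCounts 1.5.0-p3 and DESeq 1.8.3 with the GRCm38 build, per the submitters' processing notes; no source used here gives the strand setting or the treatment of reads with several matches, so counts of overlapping or near-identical genes are uncertain. The 9 per-sample files equal the table, all 9 sample columns were used, and no row lacked a gene. Libraries were prepared from 1.3 µg of RNA with a SMARTer kit, per the labels' protocols. Total counts were 68046341 to 83685313, so a floor of 3 counts was 0.0322 to 0.0592 CPM per library, which covers counting error only.

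The tests ran in edgeR 4.0.16 (R 4.3.3): filterByExpr on the 3 groups (19326 genes kept), TMM scaling, 1 mean per group over all 9 libraries, quasi-likelihood F tests and Benjamini-Hochberg adjustment over all tested genes. The common dispersion came to 0.150. The SE is the log2 fold change over the square root of F. Folds against a group with no counts use the mean of the floor of 3 counts in its libraries. Simulated data were used to test the fit. Alternatives were RLE size factors, total counts, no filter, DESeq2 1.42.0, limma-voom (limma 3.58.1), only the groups compared, a replicate block, each library left out, and MI 4 with MI_ART 3 left out. Positions are those of the RefSeq GRCm38.p6 gene table, in which all 79 symbols matched.

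The member genes and lists were chosen with earlier results of these data known. Genes named are those called in MI against Sham (the 15 smallest p in each direction), a panel of receptors, adaptors and effectors whatever their result, the 3 smallest p in each direction in MI_ART against MI, genes whose call against Sham differed, and the 3 smallest p of each pathway list. Genes given beyond this were named after their values were seen. They include Tlr5, Tlr8, Tlr11, Ticam2, Casp2, Casp6, Casp9, Naip1, Naip6, Nlrc4, Cd36, the overlapping genes and the single markers. Some members are counted in the totals but their own results are not reported here.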

Additional observations from a re-analysis of the deposited data

How the results depend on the processing

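Of 31 genes called in MI against Sham, 21 passed under every alternative run. Against Sham, the number of members higher was 26 to 35 in MI and 20 to 28 in MI_ART under the alternative tools and filters other than total counts, which gave 42 and 43. Leaving out 1 library gave 22 to 32 higher and 0 to 1 lower in MI, and 20 to 27 higher and 0 to 1 lower in MI_ART. The number lower in MI was 0 with total counts, with no filter and with only the groups compared. In MI_ART against Sham it was 2 with only the groups compared, 1 with the replicate block and 1 with MI 4 and MI_ART 3 left out. No member was called in MI_ART against MI under any alternative, though over all genes DESeq2 called 52 higher and 41 lower there, against 0 and 2 with edgeR.

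Same-numbered libraries correlated by -0.01 to 0.22 in their deviations from group means, and other pairs across groups by -0.21 to 0.15. These ranges overlap and rest on few pairs, so they cannot decide whether the numbers pair libraries. With the number as a replicate block, 30 members were higher and 1 lower in MI against Sham and 27 and 1 in MI_ART against Sham, and over all genes 3250 and 2676 were called in the latter, against 2488 and 1433.

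Signs turned, the cause not tested, for Casp2 without Sham 2 (-0.10) or MI 3 (-0.21; range over libraries left out -0.21 to 1.20), Irak2 without Sham 2 (-0.03) or MI 2 (-0.35), and Nlrx1 with limma-voom (-0.022), the block (-0.39), without Sham 3 (-0.20), without MI 4 and without MI 4 and MI_ART 3 (-0.37 each). Tlr11 turned with the block (-0.38) and without MI 4 or both libraries (-0.16 each; range -0.16 to 0.48), and Casp8ap2 with total counts (0.68), the block (0.21) and without MI 4 or both libraries (0.17 each; range -0.52 to 0.17). With total counts Irak1 (0.34), Irak1bp1 (0.39), Tlr3 (0.60) and, in MI_ART, Nlrp10 (0.047) turned. Of 1477 values for single genes 1369 kept their direction and side of the threshold. In the 3 MI libraries Gsdma had 12 to 27 counts and Nlrp12 43 to 57, which limits the precision of their values.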
